A study of Ictalurus furcatus with 16 samples.

Results

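Testis of male blue catfish (Ictalurus furcatus) was profiled by RNA sequencing in 16 libraries, 4 each at ages 2, 4, 7 and 9, with age 2 named as the control group by the study; the labels give no unit for age, no treatment and no strain. The genes described here are the enzymes and readers of histone and DNA modifications, chosen by name: symbols beginning with dnmt, kmt, setd, ehmt, suv39, prdm, kdm, kat, hdac, sirt or brd, and the tet genes, without the katanins. Of 26356 gene symbols in the count tables, 109 carried such a name, and 67 of them had at least 10 counts in at least 4 libraries. The 67 comprised 4 DNA methyltransferases, 2 TET dioxygenases, 5 KMT2, 2 SETD1, 3 KMT5, 1 EHMT and 5 other SETD methyltransferases, 11 PRDM genes, 10 lysine demethylases, 6 lysine acetyltransferases, 8 histone deacetylases, 6 sirtuins and 4 bromodomain genes. All 67 symbols are also listed in RefSeq's genes for Billie_1.0. The level of a gene is given below in CPM, assigned counts scaled to a common library size after TMM normalization, and levels are compared between libraries but not between genes.

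Chromatin in a testis is rewritten as spermatogonia divide, pass meiosis and condense into sperm. Writers add methyl or acetyl groups to histone tails, erasers remove them and readers such as bromodomain proteins bind them, while DNA methyltransferases and TET dioxygenases add and oxidise methyl groups on cytosine. In mammals several of these genes have known roles in germ cells: PRDM9 marks sites of meiotic recombination, PRDM1 and PRDM14 specify primordial germ cells, and the DNMT3 enzymes lay down methylation in male germ cells.

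The libraries held 20541746 to 24732597 fragments, of which 5136717 to 8081160 were assigned to a transcript. Ribosomal RNA genes took 20.3 to 38.2% of the assigned fragments at age 2 and 10.9 to 23.5% at the other ages, the highest share being that of age 2 replicate 1. That library stood apart from the other 3 of its age. A list of 43 spermatid and sperm tail markers, of which 31 were found and ccdc39 and ropn1l were at 0 throughout, summed to 1183 to 5492 CPM at ages 4 to 9, and to 3464 CPM in age 2 replicate 1, against 658 to 823 CPM in age 2 replicates 2 to 4. A list of 15 Sertoli cell markers, of which 13 were found and dmrt1, wt1a and wt1b were at 0 throughout, summed to 635 to 2001 CPM at ages 4 to 9 and to 517 CPM in age 2 replicate 1, against 2854 to 7883 CPM in the other age 2 libraries. Among 26 meiotic markers, of which 16 were found and sycp2 and meiob were at 0 throughout, the sums were 669 to 1352 CPM at ages 4 to 9 and 1729 CPM in age 2 replicate 1, against 405 to 774 CPM in the other age 2 libraries. Early germ cell markers, of which 19 of 21 were found and zbtb16b and kita were at 0 throughout, summed to 788 to 1175 CPM at ages 4 to 9 and to 955 CPM in age 2 replicate 1, against 1321 to 1709 CPM in the other age 2 libraries. Macrophage and myeloid markers, of which 14 of 20 were found and mrc1a was at 0 throughout, summed to 1241 to 1994 CPM at age 9, against 427 to 571 CPM at age 2. At age 9 the meiotic sums of 669 to 921 CPM lay within the range of the 4 age 2 libraries, which age 2 replicate 1 widens. Age 9 replicates 1 and 3, at 895 and 921 CPM, lay above age 2 replicates 2 to 4. Age 9 replicates 2 and 4, at 669 and 730 CPM, lay within their range. Sums give most weight to the most abundant genes of a list. By mean log2 CPM, age 2 replicates 2 to 4 overlapped ages 4 to 9 in several lists. Sertoli markers had 3.425 to 3.964 against 2.551 to 3.637, and early germ cell markers 3.119 to 3.42 against 2.26 to 3.33. Meiotic markers, at 2.784 to 3.414 against 3.035 to 3.836, overlapped too. Spermatid and sperm tail markers, at 1.475 to 1.974 against 2.79 to 4.167, did not. The part of these marker levels in the results was not tested. In bulk tissue, fewer cells of a type and less RNA per cell cannot be told apart.

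Against age 2, 15 chromatin genes fell at some age, among them the writers kat2a, kmt2bb and prdm2a, and those that rose included the bromodomain gene brd1b, the demethylases kdm4ab and kdm5a, and kmt2e and kmt5aa. At age 4, 4 of the 66 members that could be tested rose and 13 fell, 25.8% in all, where 18.6% of all 15979 tested genes passed (6.66% higher and 12.0% lower). At age 7, 6 rose and 9 fell, 22.7% of the members against 27.3% of all genes (11.5% higher and 15.9% lower). At age 9, 4 rose and 7 fell, 16.7% of the members against 18.4% of all genes (6.82% higher and 11.5% lower). At ages 7 and 9 the shares of members called were thus near those of all genes. At age 4, 19.7% of the members fell where 12.0% of all genes did, a gap that was not tested. Counted by complete separation of the 4 libraries of each age, 3 members lay above age 2 and 5 below it at age 4 (4.94% and 4.47% of all genes), 4 above and 3 below at age 7 (6.73% and 8.37%), and 0 above and 10 below at age 9 (7.12% and 7.93%). As shares of the members these were 4.55 and 7.58% at age 4, 6.06 and 4.55% at age 7, and 0 and 15.2% at age 9. The median log2 fold change of the members was -0.16 at age 4, -0.06 at age 7 and -0.19 at age 9, beside -0.05, -0.08 and -0.03 over all tested genes. All 3 comparisons use the same 4 age 2 libraries. The test was edgeR's quasi-likelihood test over all 16 libraries with Benjamini-Hochberg adjustment over all tested genes, two-sided at 0.05, and setd9 (0.00 to 1.54 CPM) was too low to be tested.

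The number of members called depended on single libraries. For age 4 against age 2 it was 28 without age 2 replicate 1, 2, 0 and 3 without age 2 replicates 2, 3 and 4, 4, 7 and 0 without age 4 replicates 1, 2 and 3, 9 and 10 without age 7 replicates 2 and 4, and 8 and 9 without age 9 replicates 1 and 3. For age 7 against age 2 it was 30 without age 2 replicate 1, 7, 7 and 8 without age 2 replicates 2, 3 and 4, and 8 without age 7 replicate 4. For age 9 against age 2 it was 25 without age 2 replicate 1, 4, 5 and 5 without age 2 replicates 2, 3 and 4, and 6, 4 and 7 without age 9 replicates 1, 2 and 3. The calls over all genes moved as well. For age 4 against age 2 they were 2979 with all libraries and 7581 without age 2 replicate 1. They were 636, 158 and 432 without age 2 replicates 2, 3 and 4, and 622, 1694 and 1 without age 4 replicates 1, 2 and 3. They were 2420 and 2569 without age 7 replicates 2 and 4, and 2469 and 2512 without age 9 replicates 1 and 3. Without age 2 replicate 1, 7941 genes were called at age 7 and 7028 at age 9, against 4368 and 2934 with all libraries. Without age 2 replicates 2, 3 and 4, 2113, 1945 and 2308 genes were called at age 7. In the same fits 1158, 1157 and 1705 genes were called at age 9. Leaving out age 7 replicate 4 gave 2530 genes at age 7. Leaving out age 9 replicates 1, 2 and 3 gave 1701, 1477 and 1470 genes at age 9. For each called member below, the number of the 24 alternatives that kept its call is therefore given. Of these, 16 leave out 1 library each, including libraries of ages outside the comparison. The rest change the normalization, filter, test, model, or the genes or ages used. Partner genes were not recomputed. The calls of kat2a, kdm6ba and prdm2a at age 9 held in all 24 alternatives. Those of prdm6 at ages 7 and 9 held in the 23 that tested it. At age 7 these 23 do not include the fit on 2 ages alone, which called 0 members.

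**Figure D1:**
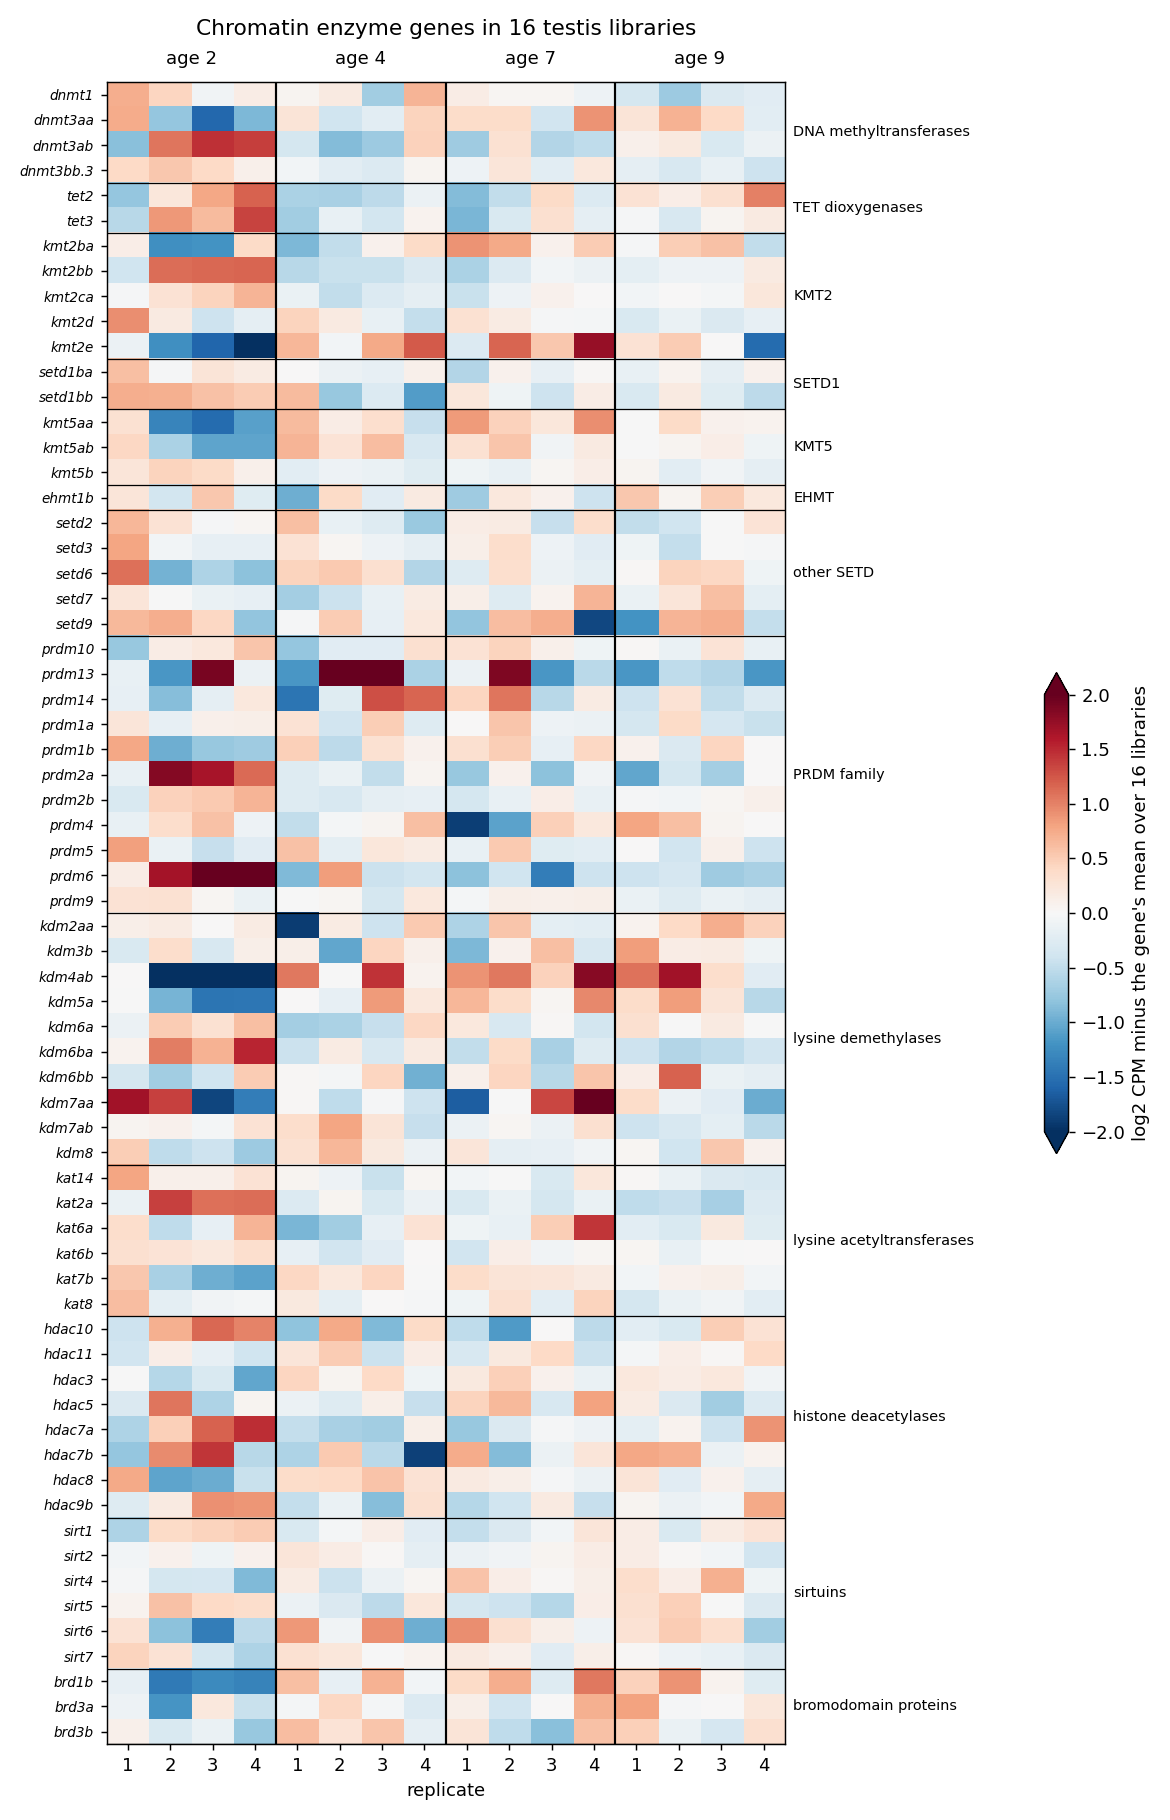
Level of 66 chromatin genes in each of the 16 libraries, as log2 CPM minus the mean of the gene over all libraries (red above it, blue below it), with genes grouped by family and libraries by age and replicate. In kat2a, kmt2bb, prdm2a and prdm6 the high libraries are age 2 replicates 2 to 4, whereas age 2 replicate 1 has the shade of the older ages.

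Among the writers of histone H3 lysine 4 methylation, kmt2bb was lower at every older age. kmt2bb is a counterpart of mammalian KMT2B, which methylates this residue at promoters. It had 308, 326, 329 and 399.6 CPM at age 9, against 265, 764, 779.8 and 788 CPM at age 2. At ages 4 and 7 it lay between 227 and 338.5 CPM. Age 2 replicate 1 lay inside the range of the older libraries, and the other 3 age 2 libraries lay above all of them. Its log2 fold change was -1.31 ± 0.27 at age 4 (SE, adjusted p = 0.0147), -1.14 ± 0.27 at age 7 (adjusted p = 0.00986) and -0.93 ± 0.27 at age 9 (adjusted p = 0.027). Its calls held in 21, 23 and 17 of the 24 alternatives at ages 4, 7 and 9.

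kmt2ca, a counterpart of KMT2C, which methylates lysine 4 at enhancers, had 461, 361, 418 and 445 CPM at age 4, against 498, 615, 686 and 814 CPM at age 2. The ages did not overlap, and the fall of 0.63 ± 0.18 on the log2 scale passed at age 4 (adjusted p = 0.0291), with the call held in 16 of 24 alternatives. At ages 7 and 9 its log2 fold changes of -0.47 and -0.33 did not pass. kmt2e, a relative for which histone methyltransferase activity has not been clearly shown, had 0.834, 2.80, 1.70 and 4.32 CPM at age 7, against 0.962, 0.278, 0.146 and 0.00 CPM at age 2. It rose at ages 4 and 7 by 2.44 ± 0.79 and 2.74 ± 0.79 on the log2 scale (adjusted p = 0.0421 and 0.0203), at levels of at most 4.32 CPM in any library. kmt2e reached 10 counts in 6 libraries only, all of ages 4 and 7. It thus met the count limit through the ages where it is high, so these rises are not independent of its selection. The call held in 11 of 23 alternatives at age 4 and 19 of 23 at age 7, and at age 9 the log2 fold change of 1.56 ± 0.82 did not pass. The SETD1 genes, whose products are the catalytic subunits of other lysine 4 methyltransferase complexes, did not pass at any age, although setd1bb lay at 121 to 198 CPM in all 4 age 9 libraries, against 249 to 289.5 CPM at age 2.

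Of the H4 lysine 20 writers, kmt5aa rose at age 7. Its mammalian counterpart adds the first methyl group to this residue and acts in the cell cycle. It had 158, 120.5, 103 and 167 CPM at age 7, against 108, 34.6, 29.7 and 40.8 CPM at age 2. Only age 2 replicate 1 among the age 2 libraries reached the age 7 range. The log2 fold change was 1.36 ± 0.35 (adjusted p = 0.0135) and its call held in 23 of 24 alternatives, while 0.93 at age 4 and 0.86 at age 9 did not pass. kmt5b, which adds further methyl groups to lysine 20, was 56.0, 60.7, 59.1 and 55.0 CPM at age 4, against 76.9, 88.3, 85.4 and 69.7 CPM at age 2. All 4 age 2 libraries were higher than the age 4 ones, and kmt5b fell at age 4 by 0.47 ± 0.15 (adjusted p = 0.0368), with the call held in 9 of 24 alternatives.

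The PRDM family held the most negative fold changes among the called members. PRDM2 methylates H3 lysine 9 in mammals, and both fish copies fell at age 4. prdm2a had 26.7, 43.4, 34.5 and 55.8 CPM at age 9, against 50.2, 198, 175 and 122 CPM at age 2. Age 2 replicate 1 lay within the range of the older ages and the other 3 lay far above it. It fell by 1.49 ± 0.36 at age 4, 1.64 ± 0.36 at age 7 and 1.76 ± 0.36 at age 9 on the log2 scale (adjusted p = 0.0176, 0.00781 and 0.00666). Its calls held in 19, 23 and 24 of the 24 alternatives. prdm2b had 120.6, 116, 127 and 128 CPM at age 4, against 116, 198, 208 and 232 CPM at age 2, so that 1 age 2 library lay at the age 4 level. It fell at age 4 by 0.62 ± 0.19 (adjusted p = 0.0366, call held in 11 of 24), and log2 fold changes of -0.51 at age 7 and -0.37 at age 9 did not pass.

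prdm6, a repressor known from smooth muscle in mammals, had 0.834, 1.22, 0.463 and 1.21 CPM at age 7, against 1.92, 6.12, 8.60 and 7.86 CPM at age 2. No age 7 library reached the lowest age 2 library, and the same was so at age 9, at 0.920 to 1.28 CPM. Its log2 fold changes were -1.88 ± 0.50, -2.70 ± 0.53 and -2.47 ± 0.53 at ages 4, 7 and 9 (adjusted p = 0.0237, 0.00616 and 0.00814), and the calls held in 18 of 24 alternatives at age 4 and in all 23 that tested it at ages 7 and 9. prdm6 reached 10 counts in 5 libraries only, the 4 of age 2 and age 4 replicate 2. It thus met the count limit through the age where it is high, so its fall is not independent of its selection. The list of 12 smooth muscle and peritubular markers, of which 9 were found and tagln, mylka and smtnb were at 0 throughout, summed to 2275 to 3885 CPM at age 4, 2795 to 7624 CPM at age 7 and 3233 to 10550 CPM at age 9, against 1575 to 4664 CPM at age 2.

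The PRDM genes known from germ cells did not pass in any comparison. prdm9 was among the steadiest members, at 89.1 to 139.6 CPM over all 16 libraries, with log2 fold changes of -0.15, -0.06 and -0.31 at ages 4, 7 and 9. prdm14 spanned 1.26 to 10.2 CPM and prdm1a 14.04 to 28.6 CPM. prdm1b had 50.4, 38.7, 64.1 and 47.8 CPM at age 9, against 81.4, 24.1, 27.98 and 28.9 CPM at age 2, with age 2 replicate 1 above every other library. ehmt1b, a counterpart of a mammalian H3 lysine 9 methyltransferase, lay at 1.89 to 5.98 CPM and did not pass at any age.

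**Figure D2:**
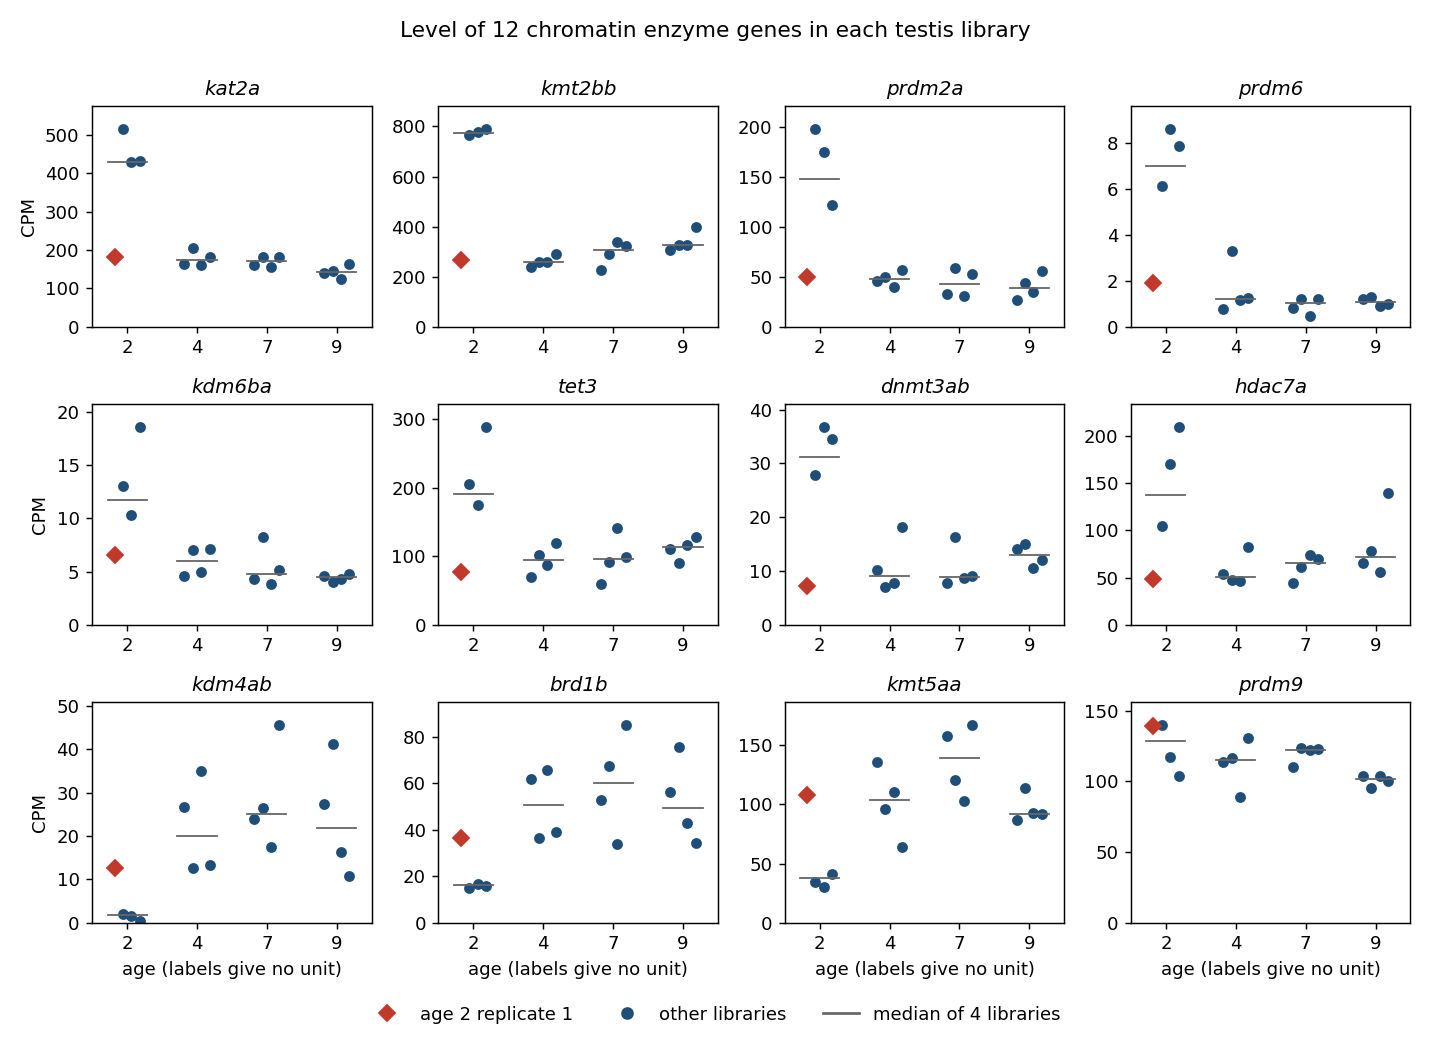
CPM of 12 chromatin genes in each library, by age, with the median of the 4 libraries as a line and age 2 replicate 1 as a red diamond; axes start at 0 and differ between panels. Age 2 replicate 1 lies at 181 CPM for kat2a and 265 CPM for kmt2bb, where the other 3 age 2 libraries lie above 420 and 760 CPM; prdm9 lies between 89.1 and 139.6 CPM at all ages.

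Among the acetyltransferases, kat2a fell at all 3 older ages. KAT2A, also called GCN5, is the acetyltransferase of the SAGA coactivator complex. kat2a had 139, 144, 125 and 164 CPM at age 9, against 181, 514, 429 and 432 CPM at age 2. The age 9 libraries all lay under the lowest age 2 library, and the 12 older libraries together spanned 125 to 207 CPM. Its log2 fold changes were -1.12 ± 0.24, -1.19 ± 0.24 and -1.44 ± 0.24 at ages 4, 7 and 9 (adjusted p = 0.0153, 0.00669 and 0.00324), and the calls held in 21, 23 and 24 of the 24 alternatives.

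kat6b, of the MYST acetyltransferases that modify H3, had 175, 150.5, 168 and 197 CPM at age 4, against 246, 238, 226 and 249 CPM at age 2. The 4 age 2 libraries were close together and above all 12 older libraries, which spanned 149.5 to 215 CPM. Its fall of 0.47 ± 0.15 on the log2 scale at age 4 passed (adjusted p = 0.0408), with the call held in 5 of 24 alternatives, and -0.35 at age 7 and -0.32 at age 9 did not. kat7b, whose mammalian counterpart acetylates histones at replication origins, had 283, 311, 318 and 283 CPM at age 9, against 426, 187, 149 and 140.3 CPM at age 2. Here age 2 replicate 1 was the highest of all 16 libraries and the other 3 were the lowest, and the log2 fold change of 0.40 ± 0.28 did not pass. kat8, the writer of H4 lysine 16 acetylation, lay at 27.5 to 53.9 CPM and did not pass at any age.

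Among the readers of acetylation, brd1b rose at every older age. BRD1 is a scaffold of MYST acetyltransferase complexes. brd1b had 52.9, 67.2, 33.8 and 85.0 CPM at age 7, against 36.2, 15.01, 16.6 and 15.9 CPM at age 2. The lowest age 7 library lay just under age 2 replicate 1 and well above the other 3. Its log2 fold changes were 1.28 ± 0.36, 1.51 ± 0.36 and 1.32 ± 0.36 at ages 4, 7 and 9 (adjusted p = 0.0275, 0.0102 and 0.0218), held in 18, 23 and 19 of 24 alternatives. The brd1b transcripts with the most counts, 2480 and 1205 over all libraries, are RefSeq models of non-coding RNA. Its coding transcript with the most counts had 758, or 98, 215, 222 and 223 at ages 2, 4, 7 and 9. The level of brd1b is thus not that of coding RNA alone. brd3a and brd3b did not pass.

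Among the deacetylases, hdac7a fell at ages 4 and 7 and hdac10 at age 7. Class IIa deacetylases such as HDAC7 act mainly as corepressors, and HDAC10 deacetylates polyamines. hdac7a had 53.8, 48.0, 46.4 and 81.9 CPM at age 4, against 48.7, 105, 170.2 and 209 CPM at age 2. Age 2 replicate 1 was again level with the older fish. The log2 fold change was -1.21 ± 0.38 at age 4 and -1.09 ± 0.38 at age 7 (adjusted p = 0.0392 and 0.0438, held in 12 and 8 of 24 alternatives). At age 9, where replicate 4 reached 139.9 CPM, -0.65 did not pass. hdac10 had 3.17, 1.92, 4.63 and 3.11 CPM at age 7, against 3.37, 7.78, 10.6 and 9.53 CPM at age 2. It fell by 1.28 ± 0.45 (adjusted p = 0.0469, held in 8 of 24 alternatives).

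Both class I deacetylases kept, hdac3 and hdac8, had positive log2 fold changes that did not pass, 0.57 to 0.66 for hdac3 and 0.24 to 0.66 for hdac8. hdac3, the catalytic subunit of a nuclear corepressor complex, lay at 14.2 to 21.7 CPM at the older ages and at 7.36 to 15.4 CPM at age 2. hdac8 lay at 14.3 to 25.2 CPM at the older ages, and at 28.7 CPM in age 2 replicate 1, against 7.92 to 12.2 CPM in the other age 2 libraries. Of the sirtuins, the NAD-dependent deacylases, none passed. sirt1, the nuclear deacetylase, had 7.87, 5.68, 7.97 and 8.65 CPM at age 9, against 4.49, 9.31, 9.76 and 10.2 CPM at age 2. sirt6, which deacetylates H3 in mammals, lay at 2.23 to 9.18 CPM at the older ages and at 1.60 to 5.77 CPM at age 2.

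**Figure D3:**
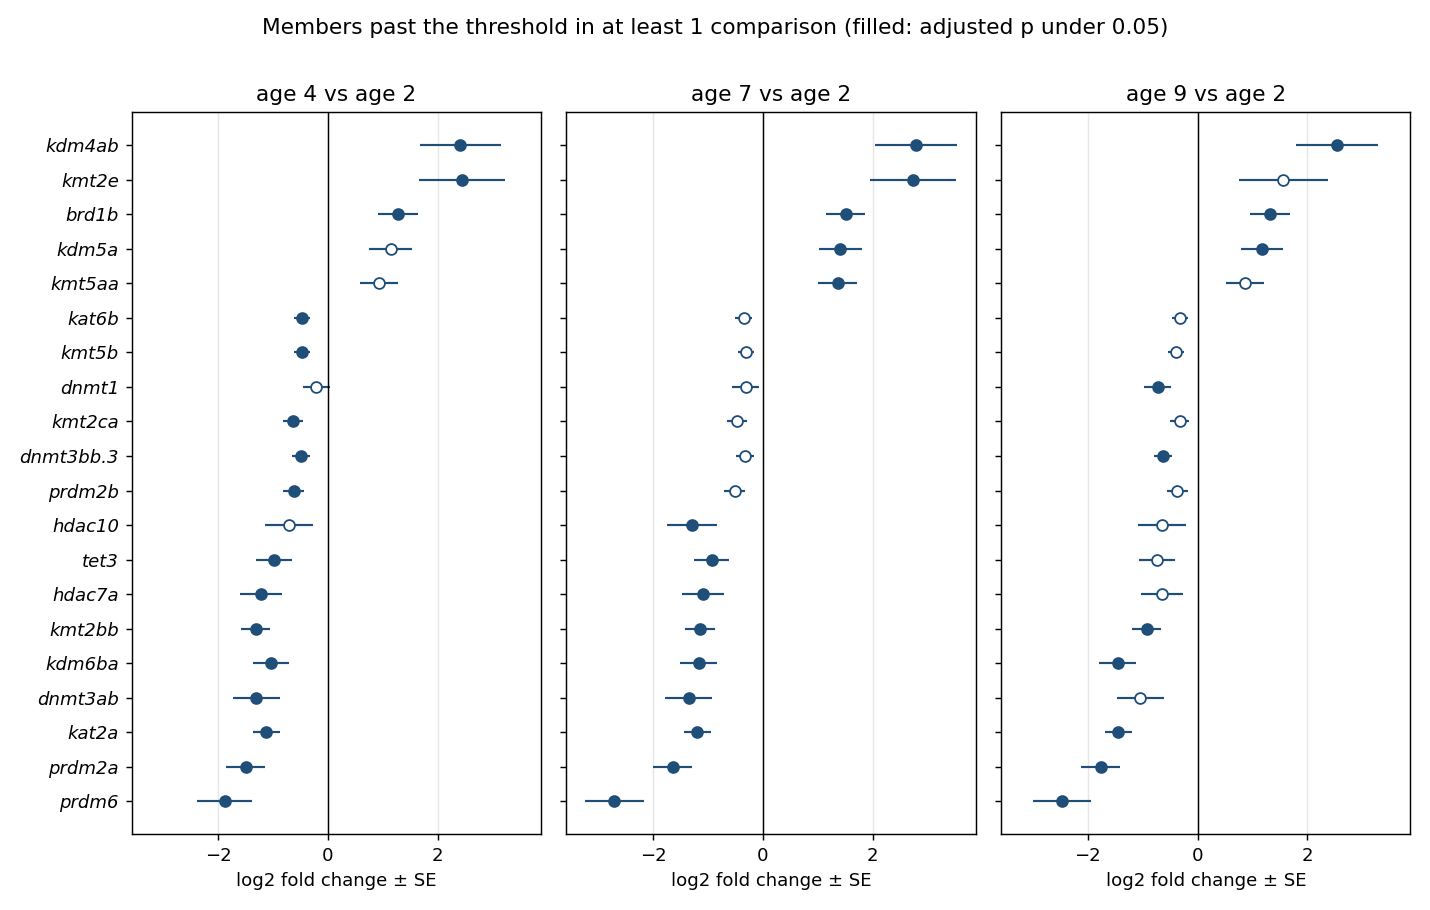
Log2 fold change against age 2 with its SE for 20 members past the threshold in at least 1 comparison, for age 4, age 7 and age 9; filled points passed and open points did not. The 5 members on the right were called higher and the 15 on the left lower, and the 3 panels share the age 2 libraries.

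The demethylases moved both ways. kdm4ab, a counterpart of KDM4A, which removes methyl groups from H3 lysines 9 and 36, had 23.9, 26.6, 17.6 and 45.6 CPM at age 7, against 12.7, 1.95, 1.46 and 0.334 CPM at age 2. No age 7 library was as low as age 2 replicate 1, and the other 3 age 2 libraries were near 0. It rose by 2.42 ± 0.74, 2.79 ± 0.75 and 2.54 ± 0.74 on the log2 scale at ages 4, 7 and 9 (adjusted p = 0.036, 0.0154 and 0.0285), held in 17, 21 and 17 of 24 alternatives. Without age 2 replicate 1 these values were 4.16, 4.55 and 4.26. It overlaps another annotated gene, so that its reads and those of its neighbour may not be told apart.

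kdm5a, which removes H3 lysine 4 methylation, had 18.2, 14.8, 11.7 and 22.4 CPM at age 7, against 11.4, 5.84, 3.93 and 4.01 CPM at age 2. The ages did not overlap, and it rose at age 7 by 1.42 ± 0.39 and at age 9 by 1.17 ± 0.39 (adjusted p = 0.0173 and 0.0468, held in 19 and 7 of 24 alternatives). Its 1.14 at age 4 stood just short of the threshold (adjusted p = 0.0504).

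kdm6ba, one of the fish counterparts of KDM6B, which removes H3 lysine 27 methylation laid down by Polycomb, had 4.62, 4.03, 4.29 and 4.73 CPM at age 9, against 6.57, 13.1, 10.3 and 18.6 CPM at age 2. The 4 age 9 libraries were close together and below all age 2 libraries. Its log2 fold changes were -1.04 ± 0.33, -1.17 ± 0.34 and -1.45 ± 0.34 at ages 4, 7 and 9 (adjusted p = 0.0419, 0.0203 and 0.0119), held in 9, 18 and 24 of 24 alternatives. kdm6bb, the other copy, had 3.93, 8.43, 3.22 and 3.10 CPM at age 9, against 2.73, 2.08, 2.62 and 5.18 CPM at age 2, and kdm6a had 10.9 to 13.8 CPM at age 9, against 10.1 to 16.9 CPM at age 2. Neither passed at any age. kdm7aa was the least steady demethylase, with 4.84 to 83.2 CPM among the 12 older libraries.

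Of the 4 DNA methyltransferases, 2, 1 and 2 fell at ages 4, 7 and 9, where 12.0, 15.9 and 11.5% of all genes fell. dnmt3aa did not pass at any age. dnmt1, which copies methylation onto new DNA strands, had 79.8, 61.4, 83.2 and 86.7 CPM at age 9, against 169, 137, 96.9 and 112 CPM at age 2. The age 9 libraries all lay below the age 2 libraries, with a fall of 0.73 ± 0.25 on the log2 scale (adjusted p = 0.0493) that held in 4 of 24 alternatives. At ages 4 and 7 its log2 fold changes were -0.21 and -0.31 and did not pass.

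dnmt3bb.3, one of the de novo methyltransferases, had 74.0, 66.9, 75.3 and 62.7 CPM at age 9, against 110, 122, 110.4 and 89.4 CPM at age 2. All age 2 libraries were higher, and dnmt3bb.3 fell by 0.63 ± 0.16 at age 9 and 0.49 ± 0.16 at age 4 (adjusted p = 0.0173 and 0.0465, held in 21 and 4 of 24 alternatives). dnmt3aa had 5.98, 8.25, 6.59 and 4.24 CPM at age 9, against 8.50, 2.78, 1.46 and 2.51 CPM at age 2, and its log2 fold changes of 0.45, 0.78 and 0.72 did not pass.

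dnmt3ab, another de novo methyltransferase, had 7.84, 16.2, 8.63 and 9.15 CPM at age 7, against 7.21, 27.8, 36.7 and 34.6 CPM at age 2. Replicate 1 of age 2 was below all age 7 libraries and the other 3 above them. It fell by 1.30 ± 0.43 at age 4 and 1.34 ± 0.43 at age 7 (adjusted p = 0.0453 and 0.0309, held in 6 and 17 of 24 alternatives), and -1.04 at age 9 did not pass. The annotation gives it 12 transcripts, of which 4 had counts, and these were looked at after the gene's values were seen. Transcript 1 summed to 149, 149, 112 and 149 counts over the 4 libraries of ages 2, 4, 7 and 9, transcript 2 to 305, 72, 67 and 90 counts and transcript 3 to 230, 54, 56 and 52 counts. Transcript 1 made up 41.9 to 60.9% of the gene's counts in the 12 older libraries, and 51.1% in age 2 replicate 1, against 27.5, 17.1 and 13.5% in age 2 replicates 2 to 4. Among fragments unique to 1 transcript, the difference thus lay in transcripts 2 and 3. Fragments shared between transcripts entered no count, so the share of each transcript in the gene's RNA is not known. The difference between transcripts was not tested.

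**Figure D4:**
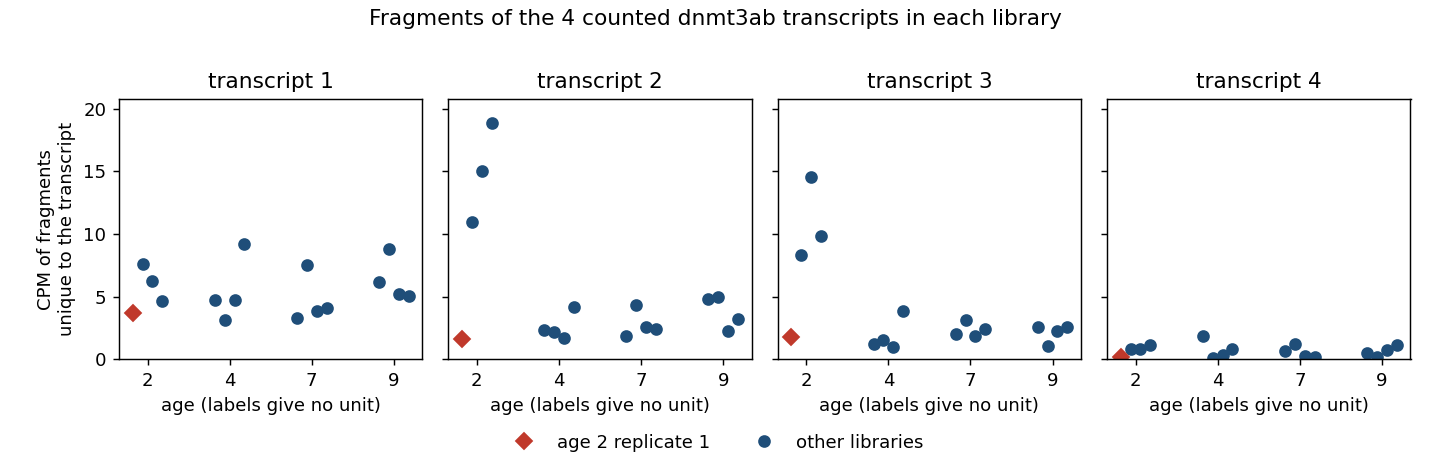
CPM of fragments assigned to each of the 4 dnmt3ab transcripts with counts, in each library by age, with age 2 replicate 1 as a red diamond. Transcripts 2 and 3 are above 8 CPM in age 2 replicates 2 to 4 and below 5 CPM elsewhere, while transcript 1 ranges from 3.19 to 9.19 CPM without separating the ages.

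Of the TET dioxygenases, which oxidise methylated cytosine, tet3 fell at ages 4 and 7 and tet2 did not pass. tet3 had 69.0, 102, 87.4 and 119 CPM at age 4, against 76.9, 206, 175 and 288 CPM at age 2. Only age 2 replicate 1 lay in the range of age 4. The falls of 0.98 ± 0.33 at age 4 and 0.93 ± 0.33 at age 7 passed (adjusted p = 0.0475 and 0.0449, held in 8 and 7 of 24 alternatives), and -0.74 at age 9 did not. tet2 had 82.1, 73.7, 84.2 and 136 CPM at age 9, against 39.4, 78.9, 115 and 153 CPM at age 2, which overlapped widely. Its log2 fold changes of -0.98, -0.76 and -0.04 at ages 4, 7 and 9 did not pass.

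Between the older ages no member passed edgeR's quasi-likelihood test, nor DESeq2 or limma voom. DESeq2 called 14, 111 and 75 of all genes for age 7 against 4, age 9 against 4 and age 9 against 7. Limma voom called 0, 63 and 242 of all genes in the same order. Of all genes 0.0125, 0.00 and 0.00% passed edgeR's test after adjustment for age 7 against 4, age 9 against 4 and age 9 against 7. At an unadjusted p under 0.05 in that test there were 1, 4 and 0 members. The share of all genes at the unadjusted threshold was not computed, so these counts are not read as a result about the members. At age 7 no member lay wholly above age 4 (1.15% of all genes did) and hdac8 lay wholly below it (1.71%). At age 9 the 4 libraries of kmt2bb, kmt2ca, prdm2b and tet2 all lay above those of age 4, where 5.29% of all genes did so, and those of hdac8 lay below, where 3.25% did. Values of dnmt1, kat7b, kdm7ab, kmt2d and prdm9 at age 9 all lay below those at age 7, where 2.61% of all genes did so, and no member lay wholly above age 7, where 3.59% did. Over the 12 older libraries the SD of log2 CPM had a median of 0.37 over the 67 members, with kmt5b the steadiest at 0.12. It was 1.03 for kdm7aa and highest, at 1.40, for prdm13, which had at most 4.235 CPM.

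The place of age 2 replicate 1 was described for every member after its values were seen. In 48 of 67 members its CPM lay within the range of the 12 older libraries, and in 18 within the range of the other 3 age 2 libraries. A range of 12 libraries takes in more values than a range of 3, so these counts cannot be compared with each other. Their shares over all genes were not computed. Those 3 libraries lay above all 12 older libraries in 11 members, 16.4% where 17.3% of all tested genes did so: dnmt3ab, kat2a, kat6b, kdm6ba, kmt2bb, kmt2ca, prdm2a, prdm2b, prdm6, sirt1 and tet3. They lay below all 12 in 13 members, 19.4% where 16.2% of all genes did so, among them brd1b, dnmt3aa, hdac3, hdac8, kat7b, kdm4ab, kdm5a, kdm8, kmt5aa, kmt5ab, prdm1b and setd6. In 18 of these 24 members age 2 replicate 1 lay in the older range, a count also without a share over all genes.

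Without that library, 15 members rose and 13 fell at age 4, 42.4% where 45.7% of all genes passed. At age 7, 16 rose and 14 fell, 45.5% against 47.9% of all genes, and at age 9, 15 rose and 10 fell, 37.9% against 42.4% of all genes. These calls included 15 of the 17, 15 of the 15 and 10 of the 11 made with all libraries. kat7b then rose by 1.23, 1.24 and 0.96 on the log2 scale at ages 4, 7 and 9 (adjusted p = 3.69e-05, 2.84e-05 and 0.000294). hdac8 rose by 1.32, 0.96 and 0.88 (adjusted p = 0.000282, 0.00252 and 0.00554), and prdm1b by 1.02, 1.19 and 0.95 (adjusted p = 0.00384, 0.00118 and 0.00657). In kat7b, hdac8 and prdm1b age 2 replicate 1 was the highest of all 16 libraries. It was set apart on these same counts, so calls and adjusted p-values without it are no independent support for a change. The labels give no ground to leave this library out, so the values with it stand as the main ones.

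**Figure D5:**
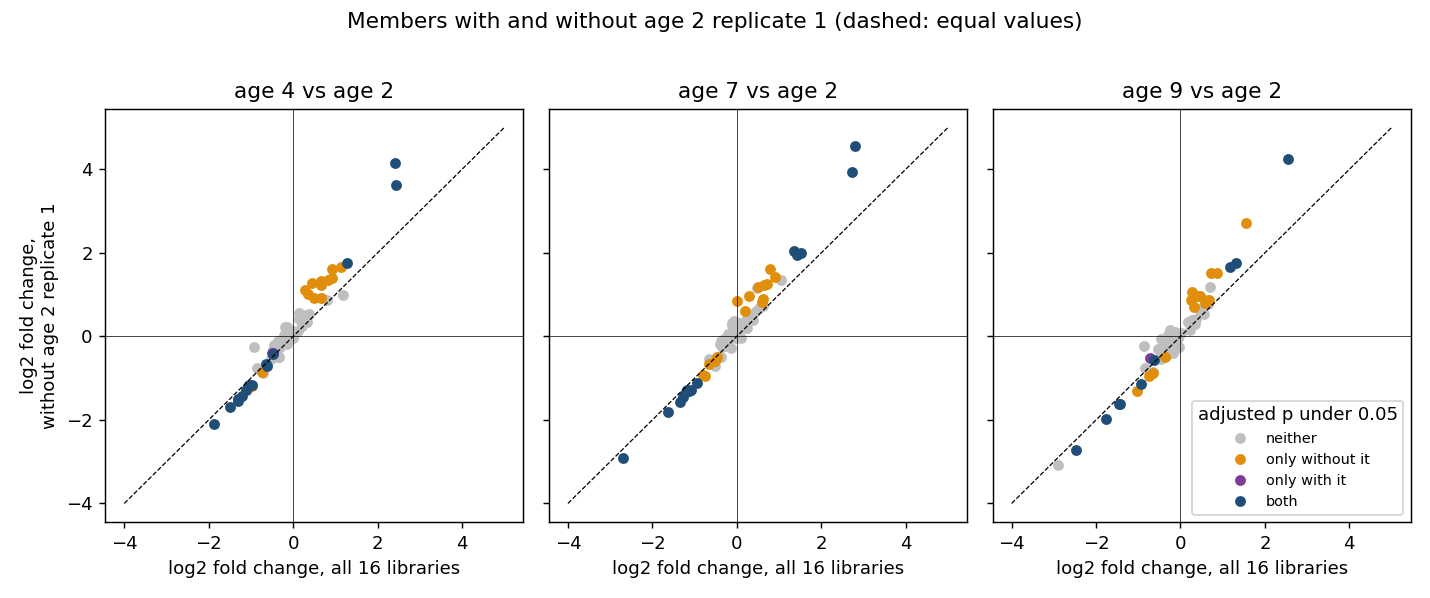
Log2 fold change of tested members for ages 4, 7 and 9 against age 2, without age 2 replicate 1 (vertical axis) and with all 16 libraries (horizontal axis). Colour shows in which fit the adjusted p was under 0.05. Not all of the 66 tested members are shown. Most called genes lie farther from 0 without that library, kdm4ab reaching 4.16, 4.55 and 4.26, while dnmt3bb.3 at ages 4 and 9 (-0.41 and -0.57), kat6b and kmt5b at age 4 (-0.39 and -0.42) and dnmt1 at age 9 (-0.52) lie nearer to it.

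The direction of a call went along with how many transcripts a gene has in the annotation, a split chosen after the values were seen. Among the 33 tested members with 1 transcript, 0, 1 and 0 rose and 11, 7 and 6 fell at ages 4, 7 and 9. Among the 33 with several transcripts, 4, 5 and 4 rose and 2, 2 and 1 fell. Over all tested genes the split ran the same way: of those with 1 transcript 5.75, 9.77 and 6.33% rose and 13.9, 18.4 and 14.1% fell, and of those with several 9.51, 16.7 and 8.33% rose and 5.97, 7.95 and 3.61% fell. Fragments that matched more than 1 feature entered no count, and they made up 22.8 to 24.8% of fragments in age 2 replicates 2 to 4, against 25.8 to 29.4% at the older ages. Their part in the split was not tested. Of the 42 symbols below the count limit, 39 have several transcripts, and 21 had 0 counts in all libraries, among them the deacetylase gene hdac6, the demethylase gene kdm1a, ehmt2, kat5b, setdb1a and the testis bromodomain gene brdt. hdac1 (2 counts in all), setdb1b and setdb2 (3 and 9) and suv39h1a and suv39h1b (70 and 40) were also under the limit, so that nothing is said of their expression.

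The 11 pairs of members whose symbols differ only in a final a or b were compared by the log2 ratio of their CPM. Each older age was set against age 2 by an exact permutation test. Pairing went by symbol alone, so a pair such as kat6a and kat6b need not be copies of the same gene. The smallest p possible with 4 against 4 is 0.0286, and none of the 33 tests passed after Benjamini-Hochberg adjustment, the lowest adjusted p being 0.236. A pass would have needed many tests at that smallest p together, so this outcome does not show that the ratios were unchanged. The kdm6ba to kdm6bb log2 ratio averaged 0.04 at age 9, against 1.82 at age 2, a difference of -1.79 without overlap (exact permutation p = 0.0286). For prdm2a and prdm2b it averaged -1.90 at age 9, against -0.60 at age 2, a difference of -1.31 without overlap (exact permutation p = 0.0286). The kdm6ba to kdm6bb difference at age 7 was -1.45, and that of setd1ba to setd1bb at age 9 was 0.57, both without overlap (exact permutation p = 0.0286 each). Reads shared between near-identical copies could move such ratios.

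Partners of these enzymes were taken from lists of 186 genes, of which 108 were tested. At ages 4, 7 and 9 against age 2, 3, 7 and 2 rose and 11, 12 and 4 fell, 13.0, 17.6 and 5.56% in all, below the 18.6, 27.3 and 18.4% of all tested genes. In Polycomb repressive complex 2, which methylates H3 lysine 27, 0 of 7 rose and 1, 2 and 1 fell, where 12.0, 15.9 and 11.5% of all genes fell. Its accessory subunit phf1 had log2 fold changes of -1.84 ± 0.44, -2.07 ± 0.45 and -2.17 ± 0.45 (adjusted p = 0.0181, 0.00768 and 0.00734). Of 6 partners of the lysine 4 methyltransferases, men1, whose product menin binds KMT2A and KMT2B, was the one that passed, higher by 2.51, 2.47 and 2.53 (adjusted p = 0.0284, 0.0203 and 0.0244). This was 16.7% of the 6 at each age, beside 18.6, 27.3 and 18.4% of all tested genes.

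Of 20 corepressor genes, 0, 1 and 0 rose and 2, 2 and 1 fell, below the 18.6, 27.3 and 18.4% of all genes called at ages 4, 7 and 9. The scaffold gene sin3aa fell by 0.91, 0.84 and 1.08 on the log2 scale (adjusted p = 0.0164, 0.011 and 0.00531). Of 20 further acetyltransferase genes and partners, 0, 1 and 0 rose and 2, 1 and 2 fell, also below those shares. Among them the coactivator gene ncoa3 fell by 1.36, 1.38 and 1.22 (adjusted p = 0.0175, 0.00956 and 0.0196). Of 6 heterochromatin partners, atf7ip, whose product partners SETDB1, was the one that passed and rose by 0.75, 0.71 and 0.90 (adjusted p = 0.0383, 0.0355 and 0.0188). This was 16.7% of the 6 at each age, beside the same shares of all genes. Of 10 partners of DNA methylation, 1, 1 and 0 rose and 0, 2 and 0 fell at ages 4, 7 and 9. The share of them called was below that of all genes at ages 4 and 9. At age 7 it was slightly above the 27.3% of all genes. Their median log2 fold changes were -0.32, -0.50 and -0.44, beside -0.05, -0.08 and -0.03 over all tested genes. gadd45aa, of a family tied to demethylation, rose at ages 4 and 7 by 1.103 and 1.55 (adjusted p = 0.0383 and 0.00865), and zbtb33, which codes for a reader of methylated DNA, was among those that fell at age 7, by 0.73 (adjusted p = 0.0236). No partner passed between the older ages.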

How the data were processed

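Per the labels, total RNA was prepared by a Zymo Quick-RNA kit and turned into libraries with NEBNext Ultra II reagents. Per the submitters' processing notes, the tools included HTSeq 0.11.1, STAR 2.7.5, Trimmomatic 0.39, FastQC 0.11.9, edgeR 4.4.2 and MultiQC 1.10.1. What each did, the strand setting and the genome build were not stated in the sources used, so reads of overlapping or antisense genes cannot be told apart. The deposited values are raw counts per transcript; summary lines (65.2 to 76.2% of fragments) were left out, and counts were summed to 26356 symbols. Of 50072 transcripts, 48916 matched RefSeq's genes for Billie_1.0. No genome or sequence table was used.

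Genes were kept by filterByExpr (minimum count 10, total 15) and fitted with edgeR 4.0.16 in R 4.3.3 (TMM, robust quasi-likelihood, 1 term per age, 12 residual degrees of freedom), with limma 3.58.1 and DESeq2 1.42.0 as alternatives; SE is the size of the log2 fold change over the root of F. The biological coefficient of variation common to all genes was 0.417. Log2 CPM used a prior count of 2. The fit was also run on simulated counts. No library was made to deviate from its age there, so that run cannot show how the fit handles a library such as age 2 replicate 1. Replicates are labelled biological, and p-values measure the variation among these samples. Pairs of libraries within an age differed by a chi-square per degree of freedom of 10.1 to 118, so none was a duplicate. The genes named are those past the threshold, up to 10 in each direction per comparison, with germ cell, DNA methylation and class I deacetylase genes whatever their values; others named were chosen after their values were seen. The members, lists and tests were chosen with earlier results of these data known. Some genes are not reported here by name, though they are counted in totals.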

Additional observations from a re-analysis of the deposited data

Results flagged for a closer look

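In 6 of 140 groups of 4 libraries, a named member's highest or lowest library stood far from the rest by Dixon's test at its 95% critical value, where chance gives about 1 in 20. Age 2 replicate 1 accounted for 4 of them: brd1b at 36.2 CPM, against 15.01 to 16.6 CPM in the other age 2 libraries; prdm1b at 81.4 CPM, against 24.1 to 28.9 CPM; kmt2bb at 265 CPM, against 764 to 788 CPM; and sirt1 at 4.49 CPM, against 9.31 to 10.2 CPM. prdm1a in age 9 replicate 2 was 25.3 CPM, against 14.04 to 15.2 CPM in the other age 9 libraries. prdm9 in age 7 replicate 1 was 109.9 CPM, against 122 to 123 CPM in the other age 7 libraries.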

How the results depend on the processing

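For age 4, age 7 and age 9 against age 2, 17, 15 and 11 members passed, beside 2979, 4368 and 2934 of all genes. Limma voom with quality weights gave age 2 replicate 1 a weight of 0.12. It called 34, 34 and 31 members, and 7861, 8587 and 7806 of all genes. Fits on 2 ages alone, which have fewer libraries, called 0, 0 and 4 members, and 0, 795 and 987 of all genes. Without a filter on low counts 6 members passed at age 4 and 7 at age 9, beside 2201 and 2584 of all genes. Without ribosomal RNA and mitochondrial genes 11 members passed at age 4, beside 2588 of all genes. The cause was not tested. Leaving out 1 library gave 0 to 28, 7 to 30 and 4 to 25, the highest without age 2 replicate 1 and the lowest without age 2 replicate 3 or age 4 replicate 3, without age 2 replicate 2 or 3, and without age 2 replicate 2 or age 9 replicate 2. Over all genes, leaving out 1 library gave 1 to 7581, 1945 to 7941 and 1157 to 7028 calls. With DESeq2 size factors, the filter of 10 counts in 4 libraries and DESeq2 the members called stayed within 1.5 times. With the replicate number as a block, 17, 17 and 9 members passed, beside 3199, 4439 and 2790 of all genes. Same-numbered libraries correlated between -0.22 and 0.412 in their deviations from the age means, over 0.1 in 9 of 24 pairs. Their median correlation was 0.0442, against -0.00825 for other pairs, and 8 of 16 libraries correlated best with their own number. The labels name no pairing, and these values do not settle whether the numbers pair samples. Of 1028 recomputed values of calls, 690 stayed past the threshold, 338 did not, and 0 changed direction. In none of the 24 alternatives did a member pass between older ages. Genes with several transcripts and those at a few CPM are limited by depth.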
